A study of Mus musculus with 7 samples.

Results

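miR-128 is a microRNA (miRNA), a short RNA that guides Argonaute proteins to messenger RNAs and lowers their output. It was taken here as every name on the array that begins with mmu-miR-128-, which gave 3 of 1881 miRNA names: miR-128-3p, miR-128-1-5p and miR-128-2-5p. The set was chosen by the signal of mmu-miR-128-3p on these arrays, which lay far above the EAM mean on part of the LAD arrays, so its difference between EAM and LAD is described below and not tested. miR-128-3p was detected on all 7 arrays. The 2 5p arms were detected on 0 of 7 arrays.

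The arrays measured RNA of helper (CD4+) T cells, which direct adaptive immune responses, from lymph nodes draining the affected tissue of mice. The EAM group, a model of myocarditis, has 4 arrays (EAM 1 to EAM 4) at day 6 after induction, and the LAD group, a model of myocardial infarction, has 3 arrays (LAD 1 to LAD 3) at day 3. These days are those of the sample labels, and the series text gives them in the opposite order. All cells were positively selected with magnetic beads through a biotin-coupled antibody to CD4. Strain, sex and age of the mice, and whether an array holds 1 animal or a pool, are not given in the sources used here, so any p-value covers only the spread between these samples. Healthy mice were not included, and the model, the day and the column of the slide cannot be told apart, since each differs between the groups.

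The LAD arrays were dimmer than the EAM arrays before scaling. The EAM arrays detected 456, 460, 445 and 471 miRNAs and the LAD arrays 341, 380 and 311. Unless called unscaled, values below are log2 signal after background correction and quantile normalization between arrays. Tests were run with limma on 423 miRNAs, those that every array of EAM, of LAD or of both detected, with a Benjamini-Hochberg adjusted p under 0.05 as the threshold. A total of 259 (61.2%) passed, 157 (37.1%) higher in EAM and 102 (24.1%) higher in LAD, with a median difference over all tested miRNAs of 0.40 (log2, EAM minus LAD).

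A mature miRNA is cut from 1 arm of a hairpin, and its bases 2 to 8, the seed, do most of the pairing with a target. Mouse miR-128-3p comes from 2 hairpins, each within a protein-coding gene that encodes an R3H-domain protein. Mir128-1 lies in R3hdm1 and Mir128-2 in Arpp21, a gene known for expression in brain and in immature thymocytes. miR-128 itself is best known as an abundant neuronal miRNA and has also been listed among miRNAs that are high in thymocytes, the T cells developing in the thymus.

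The hairpins are shown because both give the same 3p arm, so the array cannot tell from which gene the signal came. Their sequences are from RefSeq (GRCm38.p6), with the 3p arm in capitals. Mir128-1 lies at chr1:128202361-128202430 on the plus strand, within R3hdm1 (chr1:128103282-128237738), and Mir128-2 at chr9:112118636-112118711 on the minus strand, within Arpp21 (chr9:112065091-112236288).
Mir128-1: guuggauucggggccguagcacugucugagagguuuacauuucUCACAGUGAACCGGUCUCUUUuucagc
Mir128-2: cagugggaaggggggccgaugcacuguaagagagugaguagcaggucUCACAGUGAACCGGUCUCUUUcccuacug

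The mature arms are shown with the seed in capitals. The 21 bases of miR-128-3p are the same at chr1:128202404-128202424 and chr9:112118644-112118664.
miR-128-3p: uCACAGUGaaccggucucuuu
miR-128-1-5p: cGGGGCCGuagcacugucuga
miR-128-2-5p: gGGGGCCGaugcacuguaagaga
The 5p arms differ between the hairpins, so each would mark its own gene, but they share 2 runs of 7 bases, the seed GGGGCCG and, further in, GCACUGU, which lies in the part that the probes pair with.

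The array carries 2 probes for each arm. A probe is the DNA complement of the 3′ part of its miRNA, and capitals below mark the letters that pair with the seed.
miR-128-3p, 20-base probe: aaagagaccggttCACTGTG
miR-128-3p, 19-base probe: aaagagaccggttCACTGT
miR-128-1-5p, probe 1: tcagacagtgctaCG
miR-128-1-5p, probe 2: tcagacagtgctaCGG
miR-128-2-5p, probe 1: tctcttacagtgcatC
miR-128-2-5p, probe 2: tctcttacagtgcatCG
The 20-base probe pairs with bases 2 to 21 of miR-128-3p and the 19-base probe with bases 3 to 21. In the array design (mm9), the 20-base probe has a position on chromosome 1 and another on chromosome 9.

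miR-128-3p was far higher on 2 of the 3 LAD arrays than on any EAM array, and on the remaining LAD array it was at the EAM level. Its log2 signal was 6.75, 7.23, 6.75 and 7.07 on EAM 1 to EAM 4, against 6.78, 11.04 and 9.58 on LAD 1 to LAD 3. The groups overlap, because LAD 1 falls within the EAM range, while LAD 2 and LAD 3 lie above all 4 EAM arrays. Among all tested miRNAs, 34.3% had all EAM arrays above all LAD arrays and 22.2% had all LAD arrays above all EAM arrays. LAD 2 alone was above every EAM array for 37.8% of them and LAD 3 for 32.9%.

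The means were 6.95 ± 0.24 in EAM (SD, n = 4) and 9.14 ± 2.16 in LAD (SD, n = 3), a difference of -2.19 (EAM minus LAD), which corresponds to a 4.55-fold higher level in LAD. That mean describes no LAD array well. Relative to the EAM mean, LAD 1 stood at -0.16, LAD 2 at 4.09 and LAD 3 at 2.63 (log2), which is 17.0-fold higher on LAD 2 and 6.21-fold higher on LAD 3. The difference was -1.23 without LAD 2 and -3.36 without LAD 1. The SD of miR-128-3p over the LAD arrays ranked 4 of 423 from the highest, where the median SD was 0.46. A high SD there follows from the choice of miR-128-3p by its signal on part of the LAD arrays. Over the EAM arrays its SD ranked 63, where the median was 0.14.

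**Figure D1:**
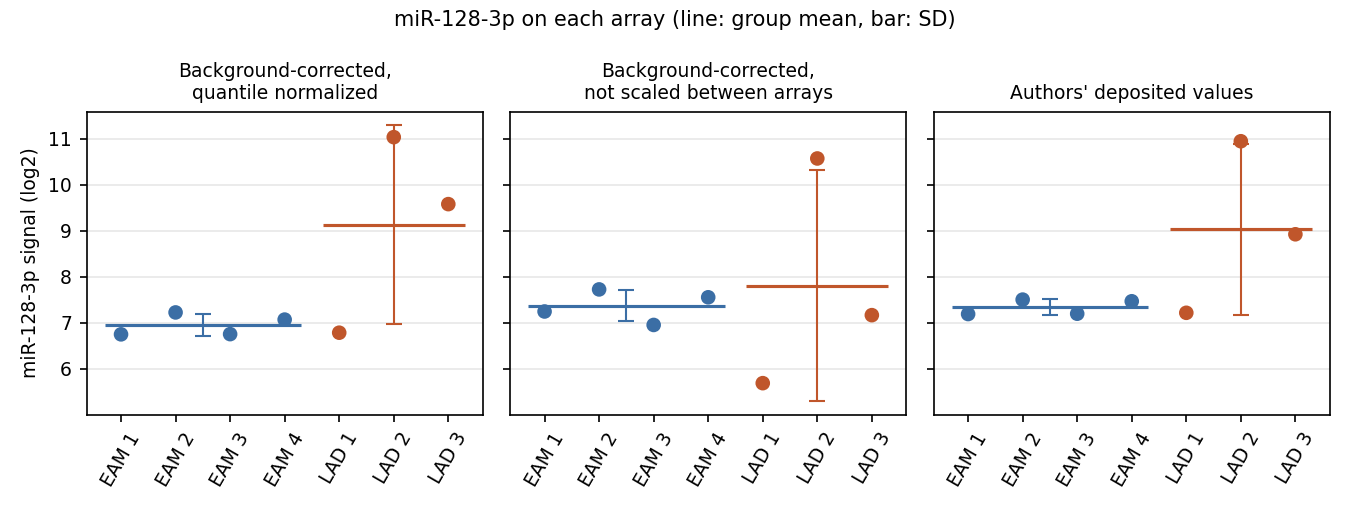
Log2 signal of miR-128-3p (y axis) on each array (x axis, 4 EAM arrays left, 3 LAD arrays right) as quantile-normalized values, values not scaled between arrays, and the authors' deposited values. Lines are group means and bars SDs. LAD 2 lies above all EAM arrays in each panel, and LAD 3 does so in the quantile-normalized and the authors' values but not in the unscaled ones.

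How far LAD 3 stood above EAM depended on the scaling of the dimmer LAD arrays. Unscaled, the background-corrected signal was 7.25, 7.73, 6.95 and 7.55 on the EAM arrays, against 5.69, 10.58 and 7.17 on the LAD arrays. On that scale LAD 2 was 9.23-fold above the EAM mean, LAD 3 was within the EAM range and LAD 1 was below it. The unscaled difference was -0.44 (EAM minus LAD). In the authors' deposited table, the values were 7.19, 7.50, 7.20 and 7.47 for EAM and 7.22, 10.95 and 8.93 for LAD. LAD 2 stood above every EAM array under the main processing and each of 9 alternatives, and LAD 3 did so under all but the unscaled one.

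Against the other miRNAs on the same array, the deviation of miR-128-3p from the EAM mean ranked 167 of 423 on LAD 1, 4 on LAD 2 and 12 on LAD 3. Over 9 ways of scaling and background correction, the rank ran from 149 to 227 on LAD 1, from 3 to 8 on LAD 2 and from 9 to 94 on LAD 3. The miRNAs above it on LAD 2 were miR-181b-5p, miR-181a-1-3p and miR-181a-5p, at 4.79, 4.40 and 4.37 above their EAM means. On LAD 1 and LAD 3 the largest deviation was that of miR-376c-3p, at 4.39 and 6.03, and on LAD 2 it was 1.10. It was detected on the 3 LAD arrays only and entered the test through LAD alone, so these deviations are from an undetected EAM level. The second on both arrays, miR-3063-3p, was detected on 5 arrays. The first 4 miRNAs were the same on LAD 1 and LAD 3 and differed from those on LAD 2. miR-128-3p was among the leading ones on LAD 2, a place that follows from the rule that chose it. On LAD 3 its place depended on the scaling, with rank 12 here, 85 under median centring and 94 under both 75th percentile scalings.

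**Figure D2:**
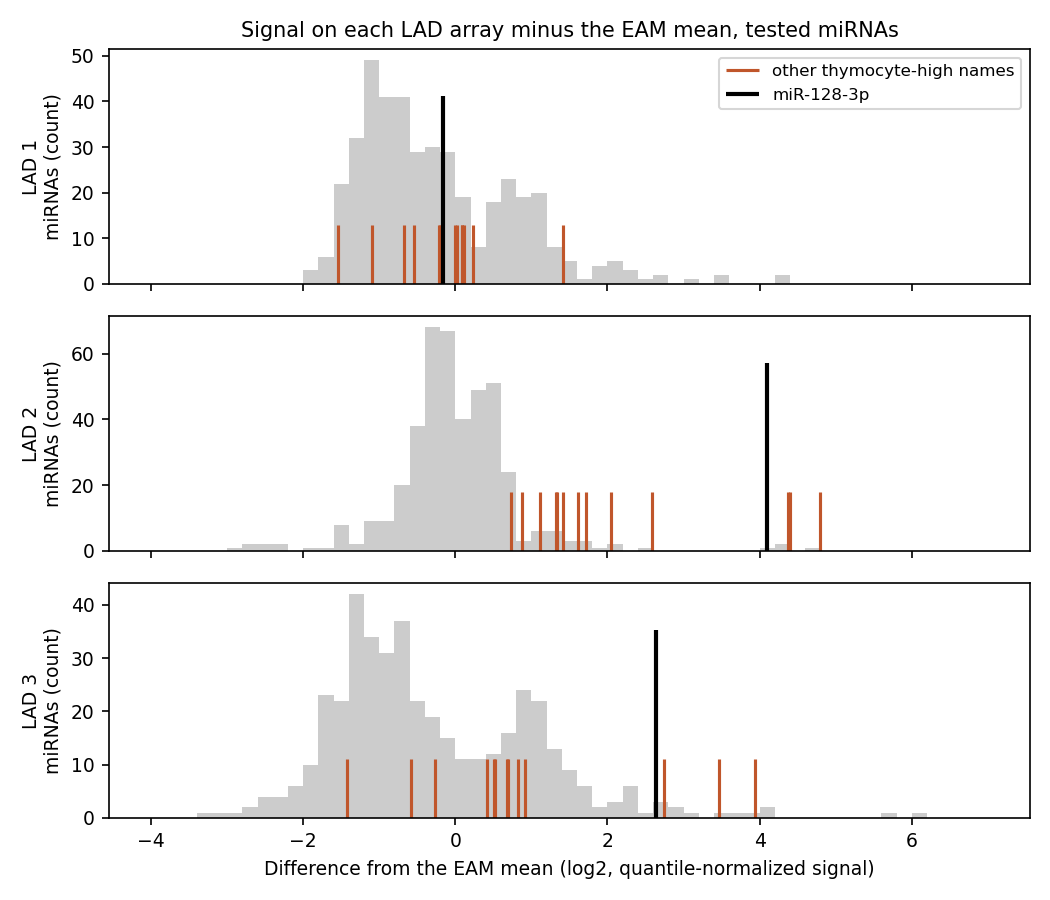
Number of tested miRNAs (y axis) by log2 difference of an LAD array from the EAM mean (x axis, LAD array minus EAM mean), 1 panel per LAD array. The black line marks miR-128-3p, at -0.16 on LAD 1, 4.09 on LAD 2 and 2.63 on LAD 3, and short lines mark the 13 other tested miRNAs listed as thymocyte-high, all above 0 on LAD 2.

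The 2 probes of miR-128-3p gave the same order of arrays. The background-subtracted, unscaled signal of the 20-base probe, as the median of up to 15 replicate spots, was 189.2, 275.8, 152.7 and 231.4 intensity units on the EAM arrays, against 62.7, 2013 and 182.4 on the LAD arrays. The 19-base probe read 103.7, 144.1, 84.2 and 135.8 on the EAM arrays, against 29.7, 1140 and 100.2 on the LAD arrays. Relative to the EAM means of 212.3 ± 53.2 and 116.9 ± 27.9 (SD, n = 4), LAD 2 was 9.48-fold higher by the longer probe and 9.75-fold higher by the shorter one. LAD 3 was at 0.859 and 0.857 of the EAM mean by the 2 probes, and LAD 1 at 0.295 and 0.254.

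The longer probe read 1.70 to 1.91 times the shorter one on the EAM arrays and 2.11, 1.77 and 1.82 times on LAD 1 to LAD 3. The coefficient of variation over replicate spots was 3.56% to 8.58% for the 20-base probe and 2.65% to 12.7% for the 19-base probe, a spread that is technical and does not cover differences between samples. All 210 spots were marked well above background, 2 were marked as outliers and 0 were saturated. The scanner software's total gene signal, which sums the probes of a miRNA, was 81.1, 115.9, 64.9 and 99.8 on the EAM arrays and 18.9, 664 and 59.6 on the LAD arrays, again unscaled.

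The 5p arms stayed at background on every array, LAD 2 included. The medians of their 4 probes lay between -3.82 and 1.35 background-subtracted intensity units over the 7 arrays. Of 420 spots, 3 were marked well above background, all on EAM arrays, and each of these was also marked as an outlier. On LAD 2, 0 of 60 spots were marked and the medians ran from -3.12 to -0.78 units. The difference between groups was 0.01 for miR-128-1-5p and 0.17 for miR-128-2-5p (log2, EAM minus LAD), a comparison of background only. The share of the miR-128-3p signal from Mir128-1 and from Mir128-2 was therefore not measurable here.

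**Figure D3:**
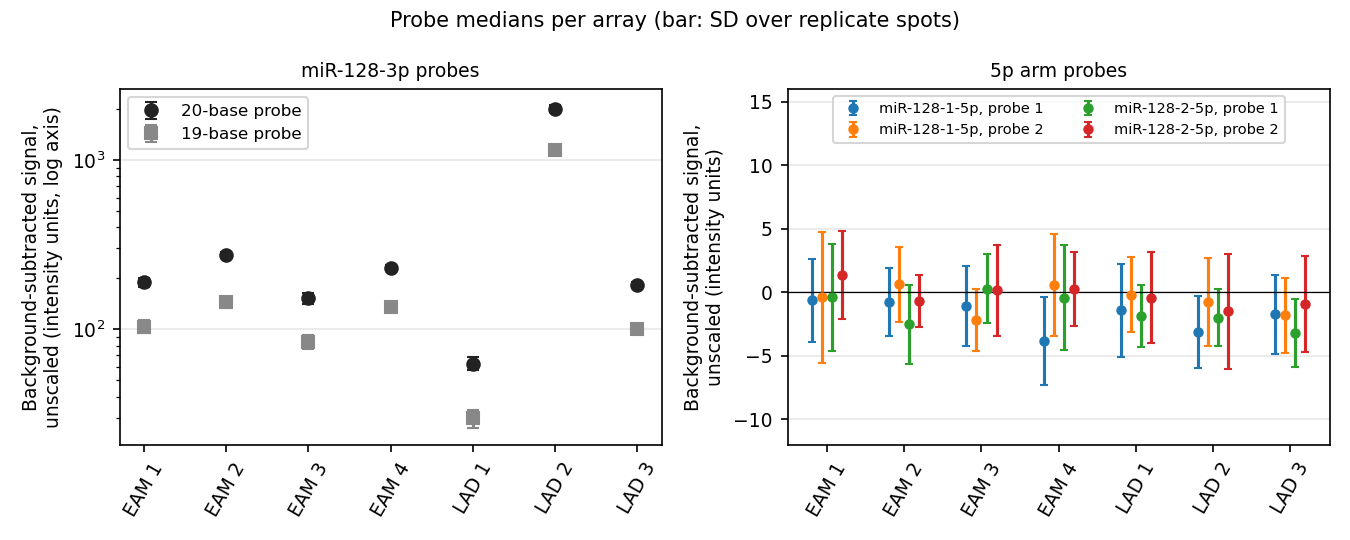
Background-subtracted, unscaled signal of each miR-128 probe on each array, as medians with the SD over replicate spots (bars), for miR-128-3p on a log axis (left) and for the 5p arms on a linear axis (right). The 20-base and 19-base probes reach 2013 and 1140 intensity units on LAD 2, while the 5p probes stay between -3.82 and 1.35 on all arrays.

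The miRNAs closest to miR-128-3p in sequence are the 3p arms of the miR-27 family, which hold the miR-128-3p seed 1 base further in. Capitals below mark those bases of miR-128-3p within each miRNA.
miR-128-3p: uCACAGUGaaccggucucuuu
miR-27a-3p: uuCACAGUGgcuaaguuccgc
miR-27b-3p: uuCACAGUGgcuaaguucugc
miR-216a-3p: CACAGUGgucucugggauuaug
miR-27a-3p and miR-27b-3p share a run of 8 bases with miR-128-3p, and among 335 tested names with a RefSeq sequence they were the 2 that did. The median shared run was 4 bases. On the array, the miR-27 probes pair with the 3′ part, which differs, for example gcggaacttagccACTG for miR-27a-3p, where capitals pair with the seed of miR-27a-3p itself.

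miR-27a-3p and miR-27b-3p, known as regulators of T cell activation and lipid metabolism, did not pass the test with all 7 arrays, and on LAD 3 they lay below their EAM means, where miR-128-3p lay above. miR-27a-3p was at 8.81, 8.62, 8.91 and 8.85 on the EAM arrays and at 8.62, 8.92 and 7.90 on the LAD arrays, a difference of 0.32 (EAM minus LAD, limma adjusted p = 0.28). miR-27b-3p was at 7.12, 7.31, 7.33 and 7.41 on the EAM arrays and at 6.23, 7.55 and 6.07 on the LAD arrays, a difference of 0.68 (limma adjusted p = 0.11). Without LAD 2 both passed as higher in EAM, miR-27a-3p by 0.54 (limma adjusted p = 0.041) and miR-27b-3p by 1.15 (limma adjusted p = 0.00017). On LAD 2 they were 0.13 and 0.26 above their EAM means, and on LAD 3 they were at -0.90 and -1.23. miR-216a-3p, which carries the seed at its first base, was detected on 0 arrays.

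The miRNAs whose profile was most like that of miR-128-3p were mostly of the miR-181 family. Likeness was measured as the root mean square difference between profiles over the 7 arrays, each as differences from its own EAM mean, and the 8 nearest are a description with no test. miR-181a-1-3p was nearest, at 0.191, followed by miR-181b-5p at 0.441, miR-181a-5p at 0.787 and miR-181d-5p at 0.992. miR-130b-3p at 1.11, miR-181c-5p at 1.14, miR-20b-5p at 1.15 and miR-34a-5p at 1.18 came next. The next miRNA was at 1.21 and the median of the other 422 was 2.04, so only the first few stand clear of the rest. miR-181a-5p, miR-181b-5p, miR-181c-5p and miR-130b-3p were among the nearest 8 under each of 10 settings, miR-181d-5p under 9, miR-181a-1-3p under 7, miR-34a-5p under 6 and miR-20b-5p under 5.

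The nearest miRNAs are shown with their own seeds in capitals, because they do not share the seed of miR-128-3p.
miR-181a-1-3p: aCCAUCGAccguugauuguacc
miR-181b-5p: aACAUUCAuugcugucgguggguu
miR-181a-5p: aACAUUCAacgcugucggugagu
miR-181d-5p: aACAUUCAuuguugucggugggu
miR-181c-5p: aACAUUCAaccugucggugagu
miR-130b-3p: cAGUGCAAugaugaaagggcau
The miR-181 5p arms share the seed ACAUUCA. Their longest run in common with miR-128-3p was 4 bases, the median of the tested miRNAs, and for miR-130b-3p it was 5.

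miR-181a-5p, which in mouse thymocytes raises the sensitivity of the T cell receptor by lowering phosphatases, was at 7.42, 7.84, 7.54 and 7.60 on the EAM arrays and at 9.01, 11.97 and 11.54 on the LAD arrays. On this scale it was above every EAM array on LAD 1 as well, whereas unscaled its LAD 1 value of 7.27 was below the EAM values of 7.81 to 8.38. miR-181b-5p, cut from a hairpin beside that of miR-181a, was at 5.17, 5.45, 5.47 and 5.60 on the EAM arrays and at 5.51, 10.21 and 8.88 on the LAD arrays. Its LAD 1 value lay within the EAM range, as that of miR-128-3p did. miR-181a-1-3p, the other arm of 1 of the miR-181a hairpins, was at 4.29, 4.41, 4.16 and 4.34 on the EAM arrays and at 4.42, 8.70 and 7.05 on the LAD arrays. It was detected on 6 of the 7 arrays.

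miR-181d-5p was at 4.69, 5.11, 4.79 and 4.99 on the EAM arrays and at 4.36, 7.48 and 5.41 on the LAD arrays. miR-130b-3p, a member of the miR-130 and miR-301 family, was at 7.26, 7.53, 7.23 and 7.31 on the EAM arrays and at 6.87, 9.49 and 7.79 on the LAD arrays. miR-181c-5p was at 6.48, 7.13, 6.49 and 6.76 on the EAM arrays and at 6.49, 8.76 and 7.13 on the LAD arrays. These 3 stood highest on LAD 2, with LAD 3 at most 0.52 above the EAM mean. On this scale, miR-128-3p and the first 3 of its neighbours were high on LAD 2 and LAD 3. Unscaled, miR-128-3p parted from those neighbours on LAD 3, where it lay within the EAM range, at 7.17. miR-181a-1-3p, miR-181b-5p and miR-181a-5p were at 5.62, 6.74 and 8.49 there unscaled. Their highest EAM values were lower, at 4.69, 5.84 and 8.38. miR-20b-5p, of the miR-106a cluster, was at 10.53, 10.55, 10.58 and 10.60 on the EAM arrays and at 10.56, 12.18 and 11.49 on the LAD arrays. miR-34a-5p, a p53-induced miRNA, was at 5.52, 5.81, 6.24 and 5.89 on the EAM arrays and at 5.03, 7.79 and 6.45 on the LAD arrays.

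**Figure D4:**
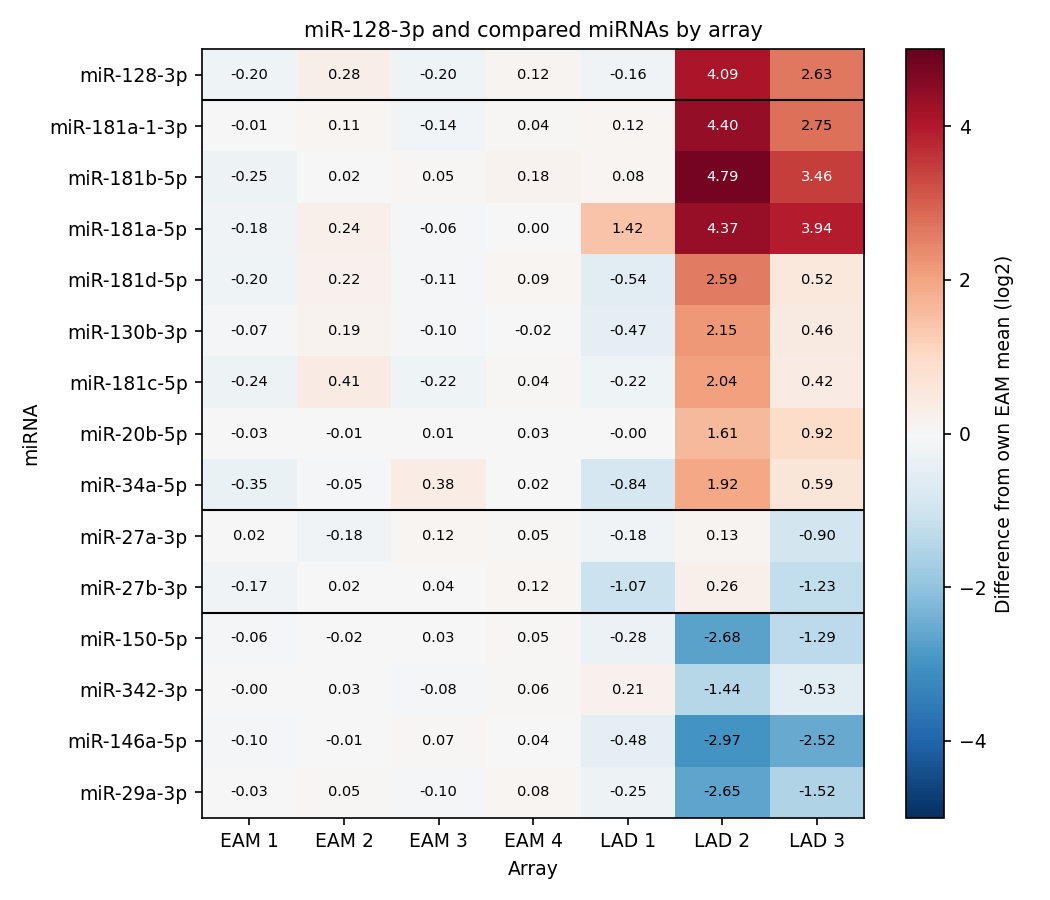
Log2 difference of each miRNA (rows) from its own EAM mean on each array (columns, EAM left, LAD right), for miR-128-3p, the 8 nearest profiles, the 2 miR-27 3p arms and 4 of the 16 miRNAs listed as high in mature T cells. miR-128-3p reads -0.16, 4.09 and 2.63 on LAD 1 to LAD 3, miR-181a-1-3p 0.12, 4.40 and 2.75, and miR-146a-5p -0.48, -2.97 and -2.52.

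The other miRNAs listed as high in thymocytes, the miR-181 family and members of the miR-17 and miR-106a clusters, which promote lymphocyte growth and survival, were compared with miR-128-3p as a group. Of 14 names on the array, 13 were tested, since miR-181a-2-3p was detected on 0 arrays. In limma, 4 of the 13 were higher in LAD (30.8%, against 24.1% of all tested), 0 were higher in EAM and 9 did not pass. In a fit of the 251 miRNAs detected on all 7 arrays, 85 were higher in LAD and 52 higher in EAM. Of the 11 list members among them, 3 were higher in LAD, a smaller share than among the 251, and 0 higher in EAM. At an unadjusted p under 0.05, limma gave 0 higher in EAM and 6 higher in LAD, against 42.8% and 25.5% of all tested miRNAs. An unequal-variance test gave 0 in either direction, against 14.2% and 14.7%. The 4 were miR-181a-5p with a difference of -3.24 (EAM minus LAD, adjusted p = 0.0093), miR-181b-5p with -2.78 (adjusted p = 0.032), miR-181a-1-3p with -2.42 (adjusted p = 0.035) and miR-19b-3p with -0.72 (adjusted p = 0.027). The median difference of the list was -0.72, against 0.40 for all tested miRNAs. It reversed to 0.51 when scaled to the 75th percentile of all probes and to 1.27 unscaled, where the median of all tested miRNAs was 0.95 and 1.37.

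By array, the list stood highest where miR-128-3p did. This is a description, because the list was chosen with earlier results of these data known. Its tested miR-181 names and miR-20b-5p are also among the nearest profiles above, so the list is no independent support. On LAD 2, 13 of 13 members were above every EAM array (100%, against 37.8% of all tested), and on LAD 3 it was 10 of 13 (76.9% against 32.9%). On LAD 1 it was 3 of 13 (23.1% against 29.3%). Unscaled, the counts were 9 of 13 on LAD 2 (69.2% against 7.09%), 3 of 13 on LAD 3 (23.1% against 4.96%) and 0 of 13 on LAD 1 (against 5.91%). Unscaled, 13 of 13 members on LAD 1, 1 on LAD 2 and 10 on LAD 3 were below every EAM array, as were 81.8%, 70.7% and 84.4% of all tested. After quantile normalization, the summed linear signal of the list was 8532 to 8957 on the EAM arrays and 9337, 25142 and 17655 on LAD 1 to LAD 3.

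Outside the miR-181 family, 1 member passed. miR-19b-3p, part of the miR-17 cluster, was at 10.96 to 11.12 on the EAM arrays and at 11.28, 12.15 and 11.88 on the LAD arrays. Its direction turned under scaling to the 75th percentile or the median, and unscaled it was higher in EAM by 1.79 (limma adjusted p = 0.038). The 9 members that did not pass had differences from -0.86 for miR-181d-5p to 0.69 for miR-17-5p (EAM minus LAD), with miR-181c-5p at -0.75, miR-20b-5p at -0.84, miR-20a-5p at -0.70, miR-19a-3p at -0.55, miR-92a-3p at -0.48, miR-18a-5p at -0.26 and miR-363-3p at 0.09.

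Single arrays set how many of the list were called. Without LAD 1, 9 of the 13 were higher in LAD, against 19.9% of all tested miRNAs in that fit. Without LAD 2, 3 were higher in EAM (miR-17-5p, miR-18a-5p and miR-363-3p), against 55.3% of all tested, and 2 were higher in LAD (miR-181a-5p and miR-19b-3p), against 26.7%. Of the list, miR-17-5p and miR-181a-1-3p were detected on only 2 LAD arrays. They entered the test through EAM alone, which favours calls toward EAM, so that of miR-17-5p is no support for that direction. Without LAD 3, 1 was higher in LAD (17.0% of all tested), and without any 1 EAM array it was also 1 (13.2% to 16.5%), and miR-181a-5p passed with each of the 7 arrays left out (adjusted p of at most 0.039).

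A list of miRNAs known to be high in mature resting T cells was compared in the same way. Of the 16 listed, all tested, 9 were higher in EAM (56.2%, against 37.1% of all tested), 0 were higher in LAD and 7 did not pass in limma. Of those higher in EAM, let-7e-5p and miR-342-5p entered the test through EAM alone, being detected on only 1 and 2 LAD arrays. In a fit of the 251 miRNAs detected on all 7 arrays, 7 of the 14 listed there were higher in EAM, against 52 of the 251. At an unadjusted p under 0.05, limma gave 10 higher in EAM and 0 higher in LAD, against 42.8% and 25.5% of all tested miRNAs, and the unequal-variance test gave 3 and 0, against 14.2% and 14.7%. Without LAD 3 the count higher in EAM was 1 of 16 (18.2% of all tested), without an EAM array it was 2 or 3 (14.9% to 22.5%), without LAD 1 it was 8 (21.0%) and without LAD 2 it was 10 (55.3%). The median difference was 0.54 (EAM minus LAD). All 16 were below every EAM array on LAD 3, 12 on LAD 2 and 14 on LAD 1, where 62.9%, 39.7% and 61.5% of all tested miRNAs were. The list did not fall as a block on LAD 2. The let-7 names and miR-26a-5p ran there from -0.67 (let-7g-5p) to 0.05 (let-7i-5p) from their EAM means. miR-342-5p was at -0.84, miR-29b-3p at -2.26 and miR-29c-3p at -2.54, and the remaining 4 are given below.

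miR-150-5p, which restrains Myb and rises as lymphocytes mature, was at 12.41, 12.45, 12.50 and 12.52 on the EAM arrays, against 12.19, 9.79 and 11.18 on the LAD arrays. Its difference was 1.42 (EAM minus LAD, limma adjusted p = 0.033). miR-146a-5p, which lowers TRAF6 and IRAK1 in the NF-κB pathway, was at 9.08, 9.17, 9.25 and 9.22 on the EAM arrays, against 8.70, 6.21 and 6.66 on the LAD arrays (difference 1.99, limma adjusted p = 0.016). On this scale both were lowest on LAD 2, whereas unscaled both were lowest on LAD 3, at 8.28 and 5.38.

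miR-29a-3p, which limits interferon-γ production by helper T cells, was at 13.38, 13.47, 13.31 and 13.49 on the EAM arrays, against 13.16, 10.77 and 11.90 on the LAD arrays (difference 1.47, limma adjusted p = 0.030). miR-342-3p was at 10.95, 10.97, 10.87 and 11.01 on the EAM arrays, against 11.16, 9.51 and 10.42 on the LAD arrays, and did not pass (difference 0.59, limma adjusted p = 0.16); without LAD 1 it passed (0.98, adjusted p = 0.031), and without LAD 2 its difference was 0.16. With 1 array left out at a time, miR-146a-5p passed in 6 of 7 fits and miR-150-5p and miR-29a-3p in 2 of 7, those without LAD 1 and without LAD 2. The summed linear signal of the 16 miRNAs was 55091 to 57639 on the EAM arrays and 48669, 31519 and 33608 on LAD 1 to LAD 3.

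CD4, the protein used for selection, is also carried by thymocytes and by some dendritic cells, and bulk RNA cannot tell fewer cells of a type from less RNA per cell. All 3 leukocyte miRNAs (miR-142a-3p, miR-142a-5p and miR-150-5p, the last also on the mature T cell list) were detected on all 7 arrays, with summed linear signals of 51682 to 57330 in EAM and 37498 to 45365 in LAD. miR-142a-3p was at 15.18 to 15.40 in EAM and 14.86 to 14.95 in LAD. The part of other cells in the miR-128-3p signal was not tested, and the levels of their markers were as follows.

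Of 11 brain miRNAs, 0 were detected on any array, with summed linear signals of 92.5 to 100.5 in EAM and 95.4 to 101.2 in LAD. Of 7 heart and muscle miRNAs, 0 were detected on any array (sums of 66.0 to 73.4 in EAM and 75.7 to 88.3 in LAD). Of 7 endothelial and stromal miRNAs, only miR-126a-3p was detected, on 5 arrays (sums of 76.3 to 89.7 in EAM and 69.9 to 111.6 in LAD). Of 7 epithelial miRNAs, 5 were tested, 4 passed as higher in EAM (80.0%, against 37.1% of all tested), and 0 were detected on all 7 arrays (sums of 155.6 to 203.3 in EAM and 88.7 to 123.1 in LAD). Each of the 5 was detected on all 4 EAM arrays but on at most 1 LAD array. They thus entered the test through EAM alone, which favours that direction, so the share is not a result about them.

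The myeloid miRNA miR-223-3p was at 6.26, 6.31, 6.59 and 6.58 on the EAM arrays and at 9.16, 7.72 and 7.63 on the LAD arrays (difference -1.74, EAM minus LAD, limma adjusted p = 0.010). Unscaled, it was at 6.78 to 7.0 on the EAM arrays and at 7.33, 7.40 and 6.01 on the LAD arrays, so that LAD 3 lay below every EAM array. Its 5p arm was detected on 0 arrays. The red cell miRNA miR-451a was at 6.36, 7.0, 6.45 and 6.48 on the EAM arrays and at 7.73, 6.37 and 6.03 on the LAD arrays (difference -0.14, limma adjusted p = 0.76), and the other 3 red cell miRNAs were detected on 0 arrays.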

How the data were processed

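Per the file headers, the arrays (7, 1 colour, all on the same slide) were read with Agilent Feature Extraction 10.7.3.1. Per the labels, 100 ng of RNA from a miRVANA extraction was labelled with Cy3 for each array. Unscaled intensity of each spot, total gene signal as an intensity for each miRNA (0.1 where not detected) and other columns of 0 or 1 marks stand in the deposited scanner files. The authors' deposited table holds log2 values; the submitters' processing notes name RMA, with no version or role.

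An array has 58594 spots (56430 without controls) and 4415 probes. Mean spot signal was corrected with normexp (limma 3.58.1, R 4.3.3; foreground only, no offset, non-control spots), quantile normalized, log2 transformed, and summarized as the median of replicate spots without outlier spots, then by median polish over probes. The 130 miRNAs detected on some arrays but on every array of neither group were not tested. EAM and LAD were compared with limma (lmFit and eBayes). The number of arrays limits the precision. Same-numbered samples did not deviate together (r = 0.18, -0.18 and -0.18 for replicates 1, 2 and 3).

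Named were all miR-128 names and probes, the tested thymocyte-high list, 4 of the mature T cell list, names with the miR-128-3p seed in their first 9 bases, the 8 nearest profiles, and markers of other cells detected on all 7 arrays; miR-376c-3p was named after its values were seen. The members and lists were chosen with earlier results of these data known. miR-106a-5p was not analysed here. Sequences are from RefSeq (GRCm38.p6; 14 of 14 names matched) and probes from the scanner files.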

Additional observations from a re-analysis of the deposited data

Results flagged for a closer look

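Of 26 miRNAs checked for an array that stands apart within the 4 EAM arrays, 1 was found. miR-142a-3p, a leukocyte miRNA, was at 15.4 on EAM 2 and at 15.18 to 15.21 on the other EAM arrays, and the gap was 0.866 of the range, above Dixon's 95% critical value. Chance gives such a result in about 1 in 20 groups. miR-128-3p had no such EAM array, and the group of 3 LAD arrays is too small for this check.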

How the results depend on the processing

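The difference of miR-128-3p, which was chosen for this contrast, kept its sign (higher in LAD) under all 17 alternatives, from -3.36 to -0.44. The alternatives use the same arrays, and arrays were left out only under the main scaling. In the unscaled case (-0.44) only LAD 2 stood above the EAM mean, with LAD 1 to LAD 3 at -1.68, 3.21 and -0.20 from it. The 5p arms, at background, were at -0.85 (miR-128-1-5p) and -0.70 (miR-128-2-5p) under median centring and at 0.43 and 0.57 without scaling. They had no value under percentile scaling or total gene signal, where every array was at the floor.

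miRNAs higher in EAM (157 of 423) numbered 83 under median centring, 296 without scaling and 85 with total gene signal. With 1 array left out they numbered 63 to 234. miRNAs higher in LAD (102 of 423) numbered 121 under median centring, 2 without scaling and 56 to 113 with 1 array left out. The detection filter changes the number tested, and these counts have another base than 423. Among the 251 detected on all 7 arrays, 52 passed toward EAM and 85 toward LAD. With no filter, 274 of 1881 passed toward EAM and 233 toward LAD. The LAD count was thus the larger one under median centring and among the 251. The unequal-variance test called 0 in either direction (60 and 62 at an unadjusted p under 0.05), and so 0 of each list.

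Thymocyte-high miRNAs higher in LAD (4) numbered 2 with no background correction, with local background, under the 75th percentile of all probes and with no filter, 1 with total gene signal, the authors' table and array weights, 0 without scaling, and 1 to 9 with 1 array left out. Those higher in EAM (0) numbered 2 without scaling, 3 with array weights and 0 to 3 with 1 array left out. The list's median (-0.72) reversed to 0.51 under the 75th percentile of all probes and to 1.27 without scaling, where the median of all tested miRNAs was 0.95 and 1.37 (main 0.40; lowest 0.10, under median centring). The list's median was near 0 under median centring (-0.0028), the 75th percentile of detected probes (-0.15) and array weights (-0.14, from the weighted fit).

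Mature T cell miRNAs higher in EAM (9) numbered 16 under the 75th percentile of all probes, 15 under that of detected probes, 14 under median centring and in the authors' table, 16 without scaling, 2 with total gene signal, 5 with no filter and 1 to 10 with 1 array left out. Their median (0.54) was 1.92, 1.26 and 1.55 under these 3 scalings and 2.82 without scaling. The cause of these shifts was not tested.

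The replicate number as a replicate block gave 31 higher in EAM, 27 higher in LAD, 2 of the mature T cell list higher in EAM, and -2.23 for miR-128-3p; the samples share only a number. The normexp fit on all spots was chosen after seeing the data. Signal over background was lowest on the LAD arrays, which limits the low miRNAs there.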
